A study of Mus musculus with 8 samples.

Results

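Cells carry ADP-ribose on proteins and release it again, and 10 mouse genes of that removal side and of the cell surface were followed here: Parg, Adprh, Adprhl1, Adprhl2, Macrod1, Macrod2, Enpp1, Art1, Art5 and Nudt9. They were found by the gene name printed beside each non-control probe of the array, which gave 18 probes for the 10 genes, out of 55681 probes in all. The RNA came from C2C12, a mouse myoblast line that fuses into myotubes when it differentiates. Samples fell into 2 groups of 4 arrays, 1 group treated with a control siRNA and 1 with an siRNA against macroH2A1.1, all taken on day 4 of differentiation. A characteristic of the second group names a knockout, whereas the titles and the design name an siRNA, so the group is treated as a knockdown. The labels give neither the siRNA sequences nor how the cultures were made, so every p-value reflects the spread among these 8 samples, which may in part be technical.

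ADP-ribosyltransferases take ADP-ribose from NAD+ and attach it to proteins, singly or as chains, and the remaining nicotinamide is recycled. Glycohydrolases cut the chains, macrodomain and ARH enzymes take off the last unit, and NUDIX enzymes split free ADP-ribose. The histone variant macroH2A1 comes in a pair of splice forms, and macroH2A1.1 is the one able to bind ADP-ribose through its macrodomain. On the outside of muscle cells, ectotransferases use extracellular NAD+ to modify surface proteins, and the ectoenzyme ENPP1 splits nucleotides.

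Values are log2 signals after subtraction of each array's own 75th percentile, so 1 unit is a doubling, and they may be compared between arrays for 1 probe but not between probes. The gene that carries the target read lower: all 3 Macroh2a1 probes had lower values on each macroH2A1.1 siRNA array than on any control array, and 37.5% to 50.6% of the control signal remained. These probes are known here by the gene only, so the level of the macroH2A1.1 splice form itself was not measured. All 12 myotube markers listed for the check, among them Ckm, Des and Myog, were well above background on all 8 arrays. The array of macroH2A1.1 siRNA replicate 2 scored 59.9 on the leading principal component, where all others scored -27.3 to 8.02, so calls are also given without its pair. Replicate numbers paired the samples. The deviations from the group means correlated at 0.41 to 0.67 over all genes between same-numbered samples, so the fit with the replicate number as a block stands beside the plain fit. In what follows, "rose" and "fell" mean an adjusted p under 0.05 in limma with that block.

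Of the 10 genes, 9 were measured well above background, on all 8 arrays in each case, and only Macrod2 was not. In limma without the block, 0 of these 9 passed (0.0221% of all 13600 genes tested did, that is 3 genes), and 1 had an unadjusted p under 0.05 (12.3% of all genes). With the block 4 passed, against 8.33% of all genes: Adprhl1, Art5 and Macrod1 rose (4.41% of all genes did) and Enpp1 fell (3.92%). In 0 of the 9 did the 2 groups of arrays fail to overlap, against 7.99% of 13548 genes. All 4 pairs changed in the same direction for 6 of the 9, of which 5 were higher and 1 lower, against 38.1% of all genes. The median difference of the 9 was 0.10, and that of all genes 0.00 (0.00496). These 10 genes were chosen with earlier results of the same arrays known, so these counts describe them and test nothing about them as a group. In RNA from whole cultures, fewer cells of a type and less RNA per cell cannot be told apart.

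**Figure D1:**
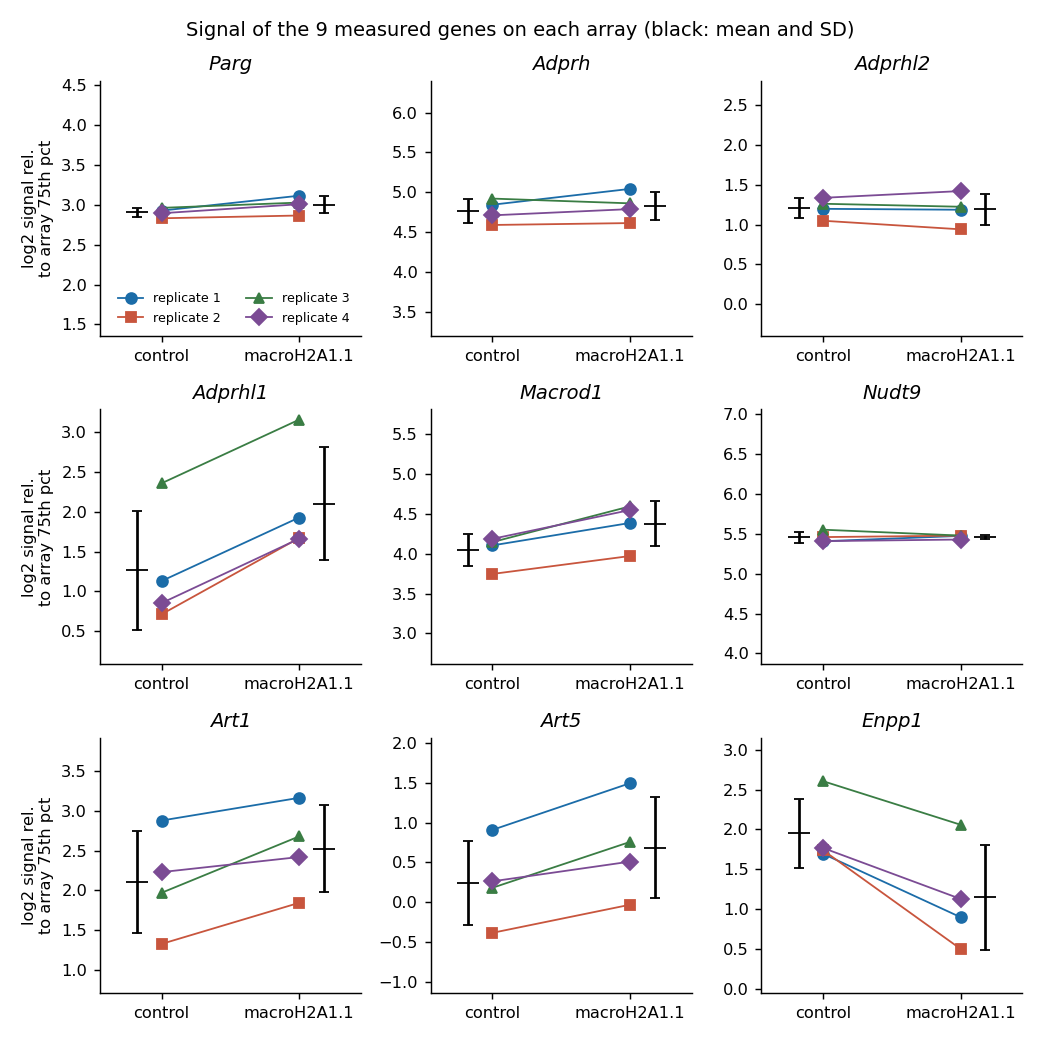
Log2 signal above or below the 75th percentile of the same array (vertical axis, the same span of log2 units in each panel) for the 9 measured genes in control and macroH2A1.1 siRNA samples. Coloured points are single arrays, lines join samples of the same replicate number, and the black mark is the mean with SD (n = 4). Lines run upward for Adprhl1 and Macrod1 and downward for Enpp1 in every pair, while the arrays of both groups overlap in each panel.

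Parg encodes poly(ADP-ribose) glycohydrolase, which cuts the chains made by PARP enzymes but leaves the unit bound to the protein. It read 2.93, 2.83, 2.96 and 2.90 in control replicates 1 to 4, and 3.11, 2.87, 3.03 and 3.01 in macroH2A1.1 siRNA replicates 1 to 4. Every pair was higher by a little, and the groups overlapped because macroH2A1.1 siRNA replicate 2 lay inside the control range. The difference was 0.10 (SE 0.08), with limma adjusted p = 0.708 without the block and 0.316 with it. The 95% interval of the blocked difference ran from -0.04 to 0.24, so Parg did not pass and a change above 1.18-fold lies outside that interval.

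The ARH family takes single ADP-ribose units off defined amino acids. Adprh encodes ARH1, which acts on arginine, the residue that the ectotransferases modify. Its signal was 4.84, 4.59, 4.92 and 4.71 in the controls and 5.04, 4.61, 4.86 and 4.79 with macroH2A1.1 siRNA. Pairs 1, 2 and 4 leaned upward and pair 3 had a difference of -0.06, so no common direction was seen. The difference was 0.06 (limma adjusted p = 0.912 without the block and 0.590 with it). Adprhl2 encodes ARH3, which acts on serine, the main residue modified after DNA damage. It read 1.20, 1.05, 1.26 and 1.34 in the controls and 1.19, 0.94, 1.22 and 1.42 with macroH2A1.1 siRNA, with a difference of -0.02 (limma adjusted p = 0.980 and 0.870). Its blocked 95% interval ran from -0.17 to 0.13.

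Adprhl1 encodes ARH2, the member of the family found in heart and skeletal muscle, for which no ADP-ribose hydrolase activity is established. Its 1 probe, listed for 1 RefSeq transcript, spans bases 13235796 to 13235855 of chromosome 8 in mm9 and reads the minus strand. The first 30 of the probe's 60 bases, shown because this probe alone carries the largest rise of the 9, cover chr8:13235826-13235855 and are in lower case as no part is singled out.
Adprhl1: ccgcctgtccacagaagaaaagtaaagtgt

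Adprhl1 read 1.13, 0.71, 2.36 and 0.85 in control replicates 1 to 4. With macroH2A1.1 siRNA it read 1.93, 1.67, 3.15 and 1.66. Replicate 3 was the highest sample of each group, so the groups overlapped, but every macroH2A1.1 siRNA sample was above the control of its own number. The 4 pair differences were 0.80, 0.96, 0.80 and 0.81, a spread far below the control range of 1.64. Group means were 1.26 ± 0.75 (SD, n = 4) and 2.10 ± 0.71 (SD, n = 4), a difference of 0.84 or 1.79-fold. Limma gave adjusted p = 0.508 without the block (SE 0.45) and 0.011 with it (SE 0.06, 95% interval 0.69 to 0.99). The exact permutation test (two-sided) gave p = 0.143 over all splits of the 8 arrays and p = 0.125 within pairs, which is the smallest p that 4 pairs allow. Without pair 2 the difference was 0.80 and still passed (adjusted p = 0.041), and without pair 1 or pair 3 it was 0.85 in each case and did not (0.067 and 0.070). With no filter on dim probes the call was lost as well (0.070).

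Macrod1 and Macrod2 encode macrodomain hydrolases that take single ADP-ribose units off acidic residues. MacroD1 is mostly mitochondrial and abundant in skeletal muscle. Its probe reads the plus strand, from base 7272433 to 7272492 of chromosome 19 in mm9. The first 30 bases, which cover chr19:7272433-7272462, are shown because Macrod1 is the macrodomain enzyme that passed.
Macrod1: agctttgagaggtctcagaagcctacagct

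Macrod1 read 4.11, 3.75, 4.15 and 4.19 in the controls and 4.39, 3.97, 4.59 and 4.55 with macroH2A1.1 siRNA. The macroH2A1.1 siRNA replicate 2 sample was the only one of its group that lay within the control range. The pairs differed by 0.28, 0.22, 0.45 and 0.36, all upward. The difference was 0.33 or 1.26-fold (limma adjusted p = 0.468 without the block and 0.041 with it, SE 0.06). Without pair 2 it was 0.36 with adjusted p = 0.093, and the call was also lost without each of the other pairs (adjusted p = 0.139, 0.138 and 0.089 without pairs 1, 3 and 4). With median centring it read 0.31 and did not pass (adjusted p = 0.079). Its adjusted p was 0.068 with each probe tested alone and 0.146 with no filter on dim probes.

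Macrod2 could not be measured with confidence. Of its 6 probes, 5 were not well above background on any array. The sixth, at 142043337 to 142043396 on the plus strand of chromosome 2 (mm9), was well above background on 1 control array and 2 macroH2A1.1 siRNA arrays. It read -4.28, -5.19, -4.44 and -5.94 in the controls and -3.82, -4.39, -3.59 and -4.39 with macroH2A1.1 siRNA. The array measured on the control side was replicate 1, and those on the other side were replicates 1 and 3. No fold is given for Macrod2, because neither group was measured on all of its arrays.

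Nudt9 encodes a NUDIX hydrolase that splits free ADP-ribose into AMP and ribose 5-phosphate, in part in mitochondria. One of its probes is printed 10 times on each array, and its values varied little. The 10 spots had an SD of 0.056 to 0.094 within an array, and the 8 array means had an SD of 0.047. These means were 5.41, 5.46, 5.55 and 5.41 in the controls and 5.48, 5.48, 5.48 and 5.43 with macroH2A1.1 siRNA, so the groups overlapped. The difference was 0.01 (limma adjusted p = 0.986 without the block and 0.942 with it), and its blocked 95% interval ran from -0.13 to 0.15. A second Nudt9 probe overlaps the repeated one by 40 bases and gave 0.04. Both are shown because their sequences differ at 1 base of the overlap, written G12T from the repeated probe to the second one, counted from 1 at the first shared base. The stretch is chr5:104494255-104494284 (mm9, plus strand), and the capital marks that base.
Nudt9 repeated probe: gaaccctgaatGtacagctttcttctcaaa
Nudt9 second probe: gaaccctgaatTtacagctttcttctcaaa

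Art1 and Art5 encode arginine ADP-ribosyltransferases of the cell surface. ART1 is anchored in the membrane of skeletal muscle fibres and modifies integrin alpha 7 in mouse muscle cells, and ART5 is a secreted relative. Both genes lie side by side on chromosome 7 and are read away from each other: in RefSeq on GRCm38.p6 their starts are 1514 bases apart. The parts of the probes read here, with 1 probe for Art1 and 2 for Art5, are shown because these neighbours ran in parallel across the arrays, as given below. They cover the first 30 bases at chr7:109259395-109259424 (plus strand), chr7:109245512-109245541 and chr7:109245660-109245689 (minus strand), all mm9.
Art1: aactctgggaccgtctatggcaattgccag
Art5 used probe: ttccagtcctaggagccacctgtccaacca
Art5 second probe: aatcaggaaagacactgctcttggacccaa

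Art5 read 0.91, -0.38, 0.18 and 0.26 in the controls and 1.49, -0.03, 0.76 and 0.51 with macroH2A1.1 siRNA. Replicate 1 was highest and replicate 2 lowest in both groups, and the groups overlapped. Each pair was higher, by 0.59, 0.35, 0.57 and 0.25. The difference was 0.44 or 1.36-fold (limma adjusted p = 0.706 without the block and 0.038 with it, SE 0.08). Its second probe, 88 bases away, read 0.47, -0.99, -0.17 and 0.00 in the controls and 1.09, -0.49, 0.54 and 0.37 with macroH2A1.1 siRNA, a difference of 0.55. With each probe tested alone among 24989, the second probe passed with the block and the first did not (limma adjusted p = 0.038 and 0.058; 3.14% of all probes passed). The Art5 call was lost without pair 1, 2 or 3 (adjusted p = 0.141, 0.097 and 0.130), and without pair 4 it was 0.0498. It was also lost with median centring (difference 0.42, adjusted p = 0.056) and with no filter on dim probes (adjusted p = 0.138).

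Art1 had values of 2.88, 1.33, 1.97 and 2.23 in the controls and 3.16, 1.84, 2.68 and 2.42 with macroH2A1.1 siRNA. The order of samples was again led by replicate 1 and closed by replicate 2 in both groups. The pairs differed by 0.28, 0.52, 0.71 and 0.19. Its difference of 0.42 did not pass (limma adjusted p = 0.722 without the block and 0.061 with it), and the blocked 95% interval of 0.17 to 0.67 holds the value of Art5. It passed with the block in 4 of the 13 other settings, such as with the authors' series values (adjusted p = 0.024).

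The 2 ectotransferase genes ranked all 8 arrays in the same order. Spearman's rho between Art1 and Art5 was 1, Pearson's r was 0.98 and r without the 2 arrays farthest from the median of Art1 was 0.99 (n = 8 arrays that share slide, scan and normalization). The myotube marker list ran in a similar order, with r of 0.89 to Art1 and 0.91 to Art5 (n = 8). Without the 2 farthest arrays these were 0.61 and 0.68. Parg, which did not pass, followed the same list at r = 0.93, and at 0.80 without the 2 farthest arrays. Adprh, Macrod1 and Adprhl1 followed it at 0.83, 0.78 and 0.66, and at 0.48, 0.53 and 0.40 without the 2 farthest arrays. For Adprhl2, Nudt9 and Enpp1 r was 0.25, 0.12 and -0.24. The list's level was lowest in control replicate 2 (-0.45) and highest in macroH2A1.1 siRNA replicate 1 (0.45). Marker lists of other cell types ran as closely with some of these genes, in the opposite direction. Adprh ran against the proliferating myoblast list at r = -0.84, and at -0.95 without the 2 arrays farthest from its median. Against the osteoblast and chondrocyte list r was -0.88 for Macrod1 and -0.79 for Parg. Without the 2 arrays farthest from the gene's median it was -0.82 for each.

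**Figure D2:**
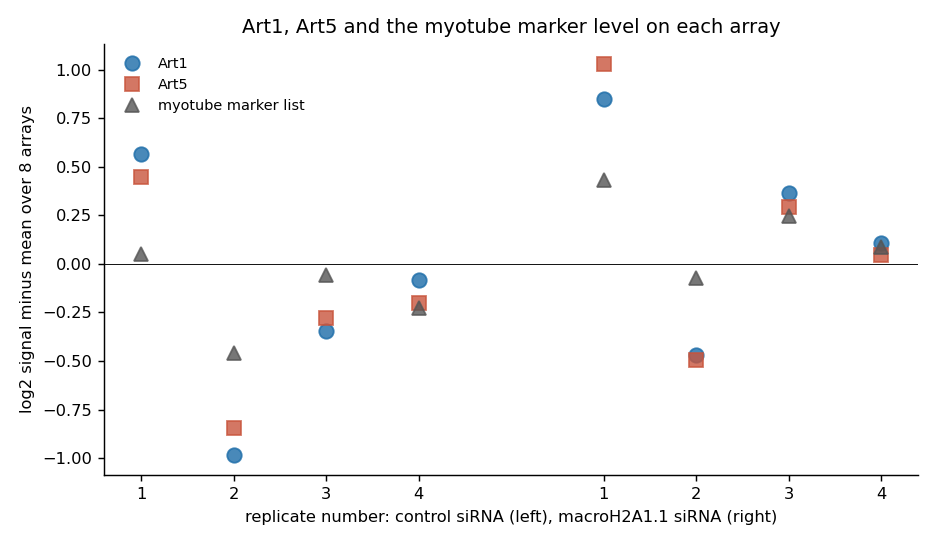
Log2 signal of Art1 (circles) and Art5 (squares) and the level of the myotube marker list (triangles), each minus its own mean over the 8 arrays, by replicate number for control (left) and macroH2A1.1 siRNA (right) samples. Art1 and Art5 lie close together on every array, with replicate 1 highest and replicate 2 lowest in both groups.

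The stretch around the start of each of these neighbours is shown because their signals ran in parallel across the arrays. Each window runs from 250 bases before the RefSeq start to 50 after it, on GRCm38.p6: chr7:102101493-102101792 on the plus strand for Art1 and chr7:102100180-102100479 on the minus strand for Art5. Windows of 9 of the 10 genes were searched on both strands for CAGCTG and CAGGTG, forms of the E-box that myogenic factors bind, and for TATAAA, the TATA box. The matches found in 1 window do not overlap. Capitals mark CAGCTG and TATAAA.
Art1: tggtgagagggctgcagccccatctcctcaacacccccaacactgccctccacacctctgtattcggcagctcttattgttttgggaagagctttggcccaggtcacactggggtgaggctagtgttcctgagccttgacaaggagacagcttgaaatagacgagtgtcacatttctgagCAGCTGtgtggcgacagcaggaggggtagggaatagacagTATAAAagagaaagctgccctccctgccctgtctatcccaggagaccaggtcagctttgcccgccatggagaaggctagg
Art5: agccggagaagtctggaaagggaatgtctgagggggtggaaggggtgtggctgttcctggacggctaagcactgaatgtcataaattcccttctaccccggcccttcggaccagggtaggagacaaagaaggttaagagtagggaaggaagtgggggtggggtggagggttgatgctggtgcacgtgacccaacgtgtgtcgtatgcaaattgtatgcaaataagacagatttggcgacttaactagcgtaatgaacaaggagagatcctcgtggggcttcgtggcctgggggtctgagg

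The Art1 window held CAGCTG from position -70 and TATAAA from position -30 relative to the start. The Art5 window held none of the 3 motifs, Adprhl1 held CAGGTG at -13 and Adprhl2 held it at -235. Of all 32851 such windows, 16.3% held CAGCTG, 20.2% CAGGTG and 13.6% TATAAA. These matches describe letters only.

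Enpp1 encodes an ectoenzyme that splits extracellular ATP into AMP and pyrophosphate, the brake on mineral deposition, and also degrades the signalling dinucleotide cGAMP. It was the 1 gene of the 9 that fell. It was read by 2 probes. The used one spans bases 24358048 to 24358107 of chromosome 10 in mm9 and reads the minus strand. A second probe is listed for a RefSeq transcript of Enpp1, and the used one only for an Ensembl transcript and clones. The first 30 bases of the used probe, at chr10:24358078-24358107, are shown because it carries the fall.
Enpp1 used probe: cagtgtgaagtgtttgactgtattccttcc

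Enpp1 read 1.69, 1.74, 2.61 and 1.77 in control replicates 1 to 4. With macroH2A1.1 siRNA it read 0.90, 0.50, 2.06 and 1.13. The groups overlapped only through replicate 3, the highest sample of each, and all other macroH2A1.1 siRNA samples lay below all controls. The pairs differed by -0.79, -1.24, -0.55 and -0.64. Means were 1.95 ± 0.44 (SD, n = 4) and 1.15 ± 0.66 (SD, n = 4), a difference of -0.80 that left 57.3% of the control signal. Limma gave adjusted p = 0.398 without the block (SE 0.34) and 0.028 with it (SE 0.12, 95% interval -1.11 to -0.49). The exact permutation test (two-sided, n = 4) gave p = 0.114 over all splits and 0.125 within pairs, the smallest value possible there. The difference was -0.66 without pair 2 (adjusted p = 0.053), and without pairs 1, 3 and 4 the adjusted p was 0.112, 0.077 and 0.053. With no filter on dim probes it was 0.110. The second Enpp1 probe read -2.75, -2.06, -1.33 and -2.27 in the controls and -3.01, -3.00, -2.07 and -2.73 with macroH2A1.1 siRNA, also lower in all 4 pairs. Its difference of -0.60 did not pass in limma with each probe tested alone and the block (adjusted p = 0.067, against 0.040 for the used probe).

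**Figure D3:**
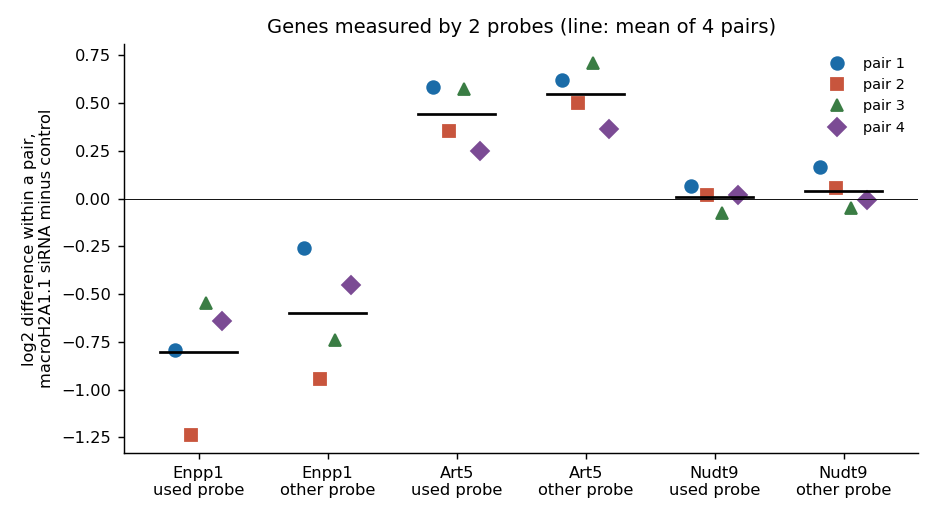
Log2 difference within each replicate pair, macroH2A1.1 siRNA minus control, for the genes measured by 2 probes. Points are the 4 pairs and the black line is their mean. Both Enpp1 probes lie below 0 and both Art5 probes above 0 in every pair, and both Nudt9 probes lie on each side of 0.

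Adprhl1 and Enpp1 moved in opposite directions with the siRNA and yet both were highest in replicate 3 of each group. Their deviations from the group means correlated at r = 0.91 (n = 8 arrays), and at 0.00 (0.00244) without replicate 3, so that relation rests on 1 pair. Over all 13547 other genes with complete values, those whose signal ran closest to Adprhl1 across the 8 arrays were Tma16 (r = 0.98), Adsl (r = 0.98) and Gm9881 (r = 0.98). For Enpp1 they were Gnao1 (r = 0.99), Tgfbr3 (r = 0.98) and Npr2 (r = 0.97). These are the highest of many correlations over few arrays and are a description.

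**Figure D4:**
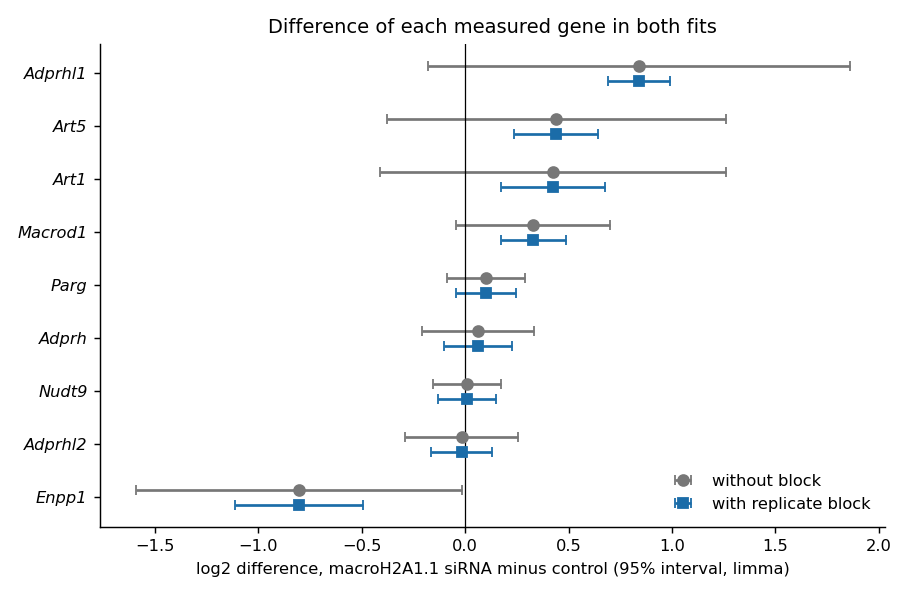
Log2 difference of the 9 measured genes, macroH2A1.1 siRNA minus control, with 95% intervals from limma without (grey circles) and with (blue squares) the replicate block. The point is the same in both fits. The blocked intervals of Adprhl1, Art5, Art1 and Macrod1 lie above 0 and that of Enpp1 below it, before adjustment over all genes.

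Arrays of replicates 1 and 2 sit in 1 row of the slide and those of replicates 3 and 4 in the other, with both groups in each row. The mean differences within the rows were 0.88 and 0.80 for Adprhl1, 0.25 and 0.40 for Macrod1, 0.47 and 0.41 for Art5, and -1.02 and -0.59 for Enpp1. With the row as a block, 0 of the 9 passed in limma.

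Another 4 lists of the pathway were read from the same fits, in which 4.41% of all genes rose and 3.92% fell with the block. Of 15 genes that write ADP-ribosylation, 14 were measured, with 0 rising and 1 falling with the block and a median of 0.09. Parp16, a transferase of the endoplasmic reticulum, fell by 0.40 (limma adjusted p = 0.157 without the block and 0.028 with it). Parp10 and Parp12, both interferon-inducible mono-ADP-ribosyltransferases, read 0.61 and 0.47 and did not pass (limma adjusted p = 0.147 and 0.364 with the block). Of 14 other genes that bind or hydrolyse ADP-ribose, 13 were measured, 0 rose and 1 fell, and their median was 0.08. The one that fell was Macroh2a1, the gene of the targeted splice form, by 0.98 (limma adjusted p = 0.042 without the block and 0.014 with it). The macrodomain genes Parp14 and Parp9, both interferon-inducible, read 1.61 and 0.99 and did not pass (limma adjusted p = 0.110 and 0.081 with the block). Without pair 2, Macroh2a1 read -1.004 and Parp16 -0.41, and neither passed (adjusted p = 0.052 and 0.085).

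Of 13 further genes listed as enzymes of extracellular NAD and ADP-ribose or as related to them, 6 were measured. With either limma fit 0 of these passed (8.33% of all genes did with the block). An unadjusted limma p under 0.05 was reached by 0 without and 2 with the block. Enpp5 read 0.35 and Art3, a further member of the ectotransferase family, read 0.28. The median of the 6 was 0.25. Art2a, Art2b, Art4, Cd38 and Bst1 were among those not measured well above background on all arrays of a group. Of the genes listed for pyrophosphate and phosphate handling, 7 were measured, with a median of -0.13. Of these 0 rose and 1 fell, against 4.41% and 3.92% of all genes. Ank, which releases pyrophosphate from cells, fell by 0.34 (limma adjusted p = 0.679 without the block and 0.034 with it). Without pair 2 it read -0.37 (adjusted p = 0.085). The phosphate transporter Slc20a2 read 0.31 and the matrix protein osteopontin, Spp1, read -0.22, neither past the test (limma adjusted p = 0.057 and 0.511 with the block).

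**Figure D5:**
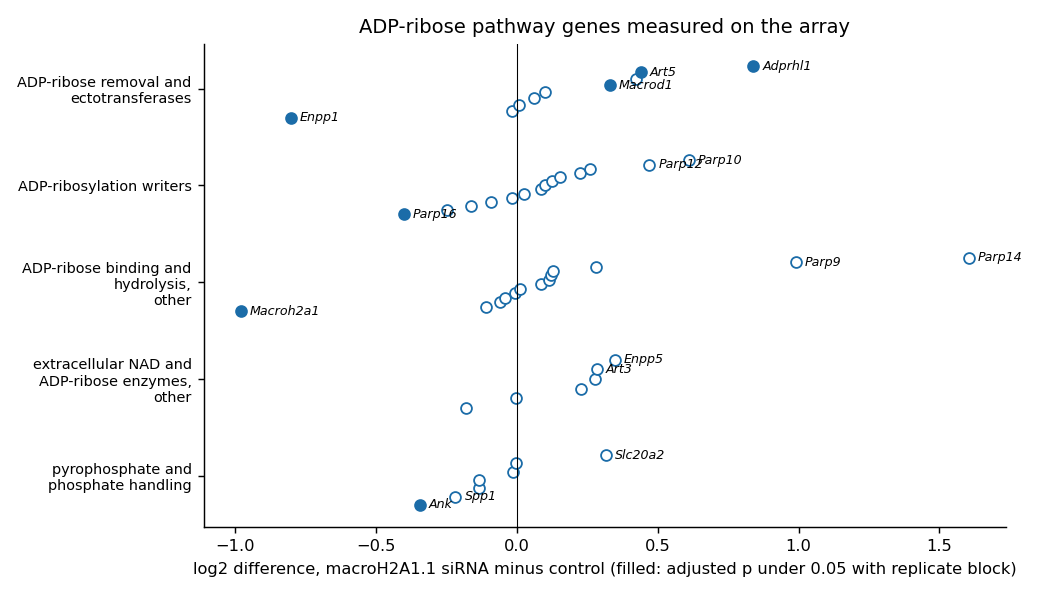
Log2 difference, macroH2A1.1 siRNA minus control, of every measured gene of the 9 and of 4 pathway lists (rows). Each circle is 1 gene and a filled circle has a limma adjusted p under 0.05 with the replicate block. Most circles lie close to 0, with Parp14, Parp9 and Adprhl1 farthest to the right and Macroh2a1 and Enpp1 farthest to the left.

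Some markers of cell state rose or fell with the block (4.41% and 3.92% of all genes did), and 0 markers of any list passed without it. Their part in the results above was not tested. Of 12 myotube markers 7 rose and 0 fell with the block (median 0.37). The list was not uniform: 10 of the 12 read above 0, while Myh4 read -1.05 (limma adjusted p = 0.061 with the block). Atp2a1, Myog and Actn3 read 0.02, 0.06 and -0.00195. The list's level lay between -0.45 and 0.07 in the controls and between -0.06 and 0.45 with macroH2A1.1 siRNA. Within pairs it was higher by 0.38, 0.39, 0.30 and 0.32, in the same direction as Adprhl1, Macrod1, Art1 and Art5. Of 7 fibroblast markers measured 0 rose and 2 fell, Postn and Col1a2 (median -0.24, levels -0.06 to 0.30 in the controls and -0.32 to 0.30 with macroH2A1.1 siRNA). That level correlated with Enpp1 at r = 0.91 over the 8 arrays, and at 0.75 without the 2 arrays farthest from the median of Enpp1. The level of the macrophage list also followed Enpp1, at r = 0.66 and at 0.64 without those 2 arrays. Deviations of Adprhl1 from its group means followed those of the fibroblast level at r = 0.86, and at 0.39 without replicate 3. They followed those of the myotube level at r = 0.47, and at 0.96 without replicate 3. Within pairs the fibroblast level differed by -0.24, -0.37, -0.00159 and 0.04, so it was lower in pairs 1 and 2 and about level in pairs 3 and 4, whereas Enpp1 was lower in all 4. The interferon response list held 11 measured genes, all well above background on every siRNA array, but 6 of them were not on every control array and 1, Oas1a, on none. Of the 5 measured on all 8 arrays, 2 rose, Ifit2 and Ifit3. The other 6 passed the filter only through the siRNA group, so their count and the list's median and level are not given.

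Of 7 proliferating myoblast markers measured 0 passed (median -0.06, levels -0.84 to 0.74 and -0.80 to 1.05), and Pax7 and Myf5 were not measured. Of 3 osteoblast and chondrocyte markers measured 0 passed (median -0.12, levels -0.07 to 0.29 and -0.27 to 0.41). Of 3 adipocyte markers measured, Pparg rose and Cebpa did not pass (limma adjusted p = 0.027 and 0.255 with the block). Fabp4 was well above background on 2 control arrays and all siRNA arrays. It thus passed the filter only through the siRNA group, so its call and the list's median and level are not given. Adipoq, Plin1, Cidec and Lep were not measured. Of 5 macrophage markers measured 0 passed (median -0.03, levels -0.25 to 0.07 and -0.17 to 0.25), and Ptprc and Lyz2 were not. Without pair 2, a setting added for these lists after the data were seen, 1 myotube marker (Myh2) was still past the threshold upward. Downward, 1 fibroblast marker (Postn) was still past it. Pparg read 0.42 in that setting and did not pass (limma adjusted p = 0.077 with the block), and 0 of the interferon genes passed.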

How the data were processed

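Total RNA from C2C12 cells (500 ng per sample, per the labels' protocols) was labelled with Cy3 and hybridised to 1-colour Agilent arrays, 4 per group. Spot intensity was read by the authors in Agilent Feature Extraction 10.7.3.1 (build mm9, per the file headers), and the processed intensity is background-subtracted and detrended. The authors' deposited series values are on a log2 scale and had been normalized between arrays, since all 8 columns shared a median of 6.29 and a range of 5.65 to 17.98. How their background was treated is not given in the sources used here. Against the log2 median signal of the matching array their r was 0.998 to 1.00, and they served as an alternative. Series columns that belong to no sample numbered 0.

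Control spots were removed and outlier-flagged spots (143 to 236 an array, 0 of these genes) set missing. The processed intensity was put on a log2 scale, each array's 75th percentile was subtracted, and repeated spots were averaged. Of the 59305 remaining spots an array, 46.9% to 49.8% were well above background and 0 saturated, and arrays correlated at 0.963 to 0.992. Of 55681 probes, 32547 received a gene name (27598 by RefSeq accession, 3481 by current and 391 by older symbol on GRCm38.p6, 1077 by the file's own name), including all 18 of these genes. A probe was kept where every one of the 4 arrays of either group read it well above background (24989 probes, 12 of them here), and each gene took its kept probe of highest mean (13600 genes). The number of arrays limits the precision. Limma 3.58.1 in R 4.3.3 compared the groups (two-sided, Benjamini-Hochberg adjustment over all genes, threshold 0.05), first with no block and then blocked on replicate number. The pairing comes from the data: deviations from group means correlated between same-numbered samples at 0.61, 0.55, 0.67 and 0.41, all above 0.1. All arrays share 1 slide and 1 scan, and each of the 4 array columns holds 1 group. The fits were also run on simulated data with the pairing built in, which checks the code and not the calls made here.

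The members, the lists and the rule for named genes were chosen with earlier results of these data known. That rule takes all 10 genes, Macroh2a1, up to 4 genes per pathway list that changed most past the threshold in either fit (or, where fewer than 2 passed, up to 2 that changed most without passing), and the 3 genes closest to Adprhl1 and to Enpp1. Marker genes named beside their lists were chosen after their values were seen. Alternatives were median centring, quantile normalization, normexp with an offset of 50, the series values, no or a stricter filter on dim probes, averaged or single probes, trended robust eBayes, blocks for array row and column, and leaving out arrays or pairs. Promoter windows are RefSeq's. The sequence of 1 Enpp1 probe is not reported here. Files were read with Python 3.11.15 and pandas 2.3.3, and plots made with matplotlib 3.10.9.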

Additional observations from a re-analysis of the deposited data

Results flagged for a closer look

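Within each group of 4, each of the 18 probes was checked for a sample far from the other 3, which made 36 checks, and chance marks about 1 in 20 of them. There were 2 such samples. On the used Enpp1 probe, control replicate 3 read 2.61 against 1.69 to 1.77 in the other controls, and without it the difference was -0.59 (limma adjusted p = 0.578 without the block). On the repeated Nudt9 probe, macroH2A1.1 siRNA replicate 4 read 5.43 against 5.48 in the other samples of its group.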

How the results depend on the processing

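Without the block, limma called 3 of all genes, and 1 with median centring, 5 with detection on all arrays, 1 with each probe alone, 10 with the array row as a block, 7 with the array column as a random block, 1133 with the replicate block, and 0 to 11 with 1 array left out (1223 to 1712 at an unadjusted p under 0.05). Of the 9 genes it called 0 in every one of these settings except the replicate block, which called 4.

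With the replicate block the count of 1133 became 1902 with normexp, 1724 with the series values, 2074 with trended robust eBayes and 0 with no filter on dim probes (3933 at an unadjusted p under 0.05, among 23480 genes tested). Without pairs 1, 2, 3 and 4 it was 0, 139, 0 and 651 (2743, 3198, 2934 and 3700 unadjusted). Of the 9 genes, 4 became 2 with median centring (where 775 of all 13600 genes were called), 0 with no filter, and 0, 1, 0 and 2 without pairs 1 to 4. Beside those values, leaving out a pair leaves fewer samples, and the cause of the other shifts was not tested. Among 13 blocked alternatives Adprhl1 passed in 10, Enpp1 in 8, Art5 in 7, Macrod1 in 6 and Art1 in 4, and these 5 genes kept their direction in each. The block raised the calls among ADP-ribosylation writers from 0 to 1 and among genes of pyrophosphate and phosphate handling from 0 to 1. Among all genes it raised them from 0.0221% to 8.33%.

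Differences near 0 turned sign. Nudt9 read -0.0243 with normexp, -0.0131 with quantile normalization, -0.0115 with median centring and -0.0315 with the series values, in both fits. It read -0.00854 to 0.0397 with 1 array left out, and in the blocked fit -0.0116 to 0.0352 with 1 pair left out. Adprh ran from -0.0117 to 0.131 and Adprhl2 from -0.0939 to 0.0661 with 1 array left out, and Adprhl2 read 0.0119 in the blocked fit without pair 2. Signal over background limits Macrod2.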
